A study of Mus musculus with 6 samples.

Results

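Proteoglycan core proteins and the enzymes that build, sulfate and trim their glycosaminoglycan chains were compared between Sox9-EGFP positive cells and Sox9-EGFP negative cells of the mouse forelimb autopod, the hand plate in which the digits form. The set held 48 genes, taken by name among the non-control probes of the array, and all 48 had at least 1 probe (59 probes of 55681). It comprised 11 heparan sulfate core proteins, 16 enzymes of heparan sulfate, 11 enzymes of chondroitin or dermatan sulfate, 5 enzymes of the linker that both chains share, and 5 genes that supply sugar nucleotides or active sulfate. Of the 48 genes, 41 had a probe that 1 group or both detected above background on all 3 of its arrays, and these were tested among 13197 genes.

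RNA came from C57BL/6 embryos at E11.5 with an EGFP knock-in at Sox9, and sorting separated their mesenchymal cells by EGFP. The positive group and the negative group had 3 samples each, and each sample pooled cells of about 10 autopods. Both groups came from embryos with the same knock-in allele, so no group lacked the reporter. Every sample had a 1-colour Agilent array to itself. The series title names a network of Bmp, Sox9 and Wnt, and the sort compares EGFP positive with EGFP negative cells. Whether the samples of a group came from separate litters or sorts is not stated, so p-values measure the spread between these samples, which may be technical.

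A proteoglycan is a core protein that carries long sugar chains. Heparan sulfate and chondroitin sulfate chains start from the same linker of xylose, galactose and glucuronic acid, and different polymerases and sulfotransferases then extend and modify them. Heparan sulfate on glypicans, syndecans, perlecan and agrin binds FGF, BMP, Wnt and Hedgehog proteins, and its pattern of sulfation sets how strongly they bind. Chondroitin sulfate is the main chain of cartilage matrix, where 4-O-sulfation of chondroitin is needed for normal growth of the skeleton.

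Levels are given as log2 signal relative to the 75th percentile of the array, and differences as log2 values of positive minus negative cells with the SE of limma (n = 3 arrays per group). A gene was called when its p, adjusted by Benjamini-Hochberg over all 13197 genes in limma, was under 0.05. Sox9 was 20.7-fold higher in the positive cells, at 3.52, 2.99 and 3.60, against -0.88, -1.0 and -1.13 in the negative cells. Positive array 1 was dimmer than the others, with a 75th percentile of 126 against 385 to 478, and 38 of the 41 tested genes of the set were above background on it. The muscle precursor markers Pax3 and Lbx1 were lower in the positive cells, and the summed log2 level of the 3 measured markers of 5 on that list was -15.7 to -13.7 in positive and -8.00 to -4.75 in negative samples. Pax3 was above background on 0 of 3 positive arrays, Lbx1 on 1 and Met on 2, and each passed the filter only through the negative cells. The positive sums therefore rest in part on values below detection, and the Pax3 decrease was at least 4.19-fold. Negative array 2 stood apart in blood genes, with a summed level of 5.57 for the 2 measured red cell markers of 5, against -1.77 and -0.65 on the other negative arrays and -4.60 to -1.28 on the positive arrays. The limb mesenchyme list, 5 measured markers of 6, was well detected in both groups, with a summed level of 16.8 to 17.0 in positive and 20.4 to 20.6 in negative samples, Twist1 and Hoxd13 lower and Pdgfra higher. The part of these cell types in the results was not tested.

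In the set of 41 tested genes, 2 were higher and 9 were lower in the positive cells. Over all genes tested 35.0% were called, 10.6% higher and 24.4% lower, against 26.8% of the tested members. The 2 higher genes were the sulfatase gene Sulf1 and the chondroitin 4-O-sulfotransferase gene Chst11. The 9 lower genes were Sdc2, Sdc1, Sulf2, Extl2, Extl3, Xylt2, B3galt6, Chsy1 and Slc26a2. A difference of at least 2-fold was called in 2 higher genes (5.32% of all genes) and 2 lower genes (5.70% of all genes), namely Sulf1, Chst11, Sdc2 and Sdc1. The arrays of both groups did not overlap in 19 of the 41 genes, against 51.3% of all genes. The median difference of the 41 genes was -0.13 and that of all genes -0.18, and 22 of the 41 lay above -0.18. Because RNA was pooled from many cells, fewer cells of a type and less RNA per cell cannot be told apart in any of these differences.

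The balance of higher and lower calls depended on the scaling of the arrays. With each array centred on its median over tested genes, 5 members were higher and 6 lower. Quantile normalization gave 6 higher and 4 lower, normexp background correction with quantile normalization gave 10 and 4, and the authors' deposited log2 values gave 9 and 4. Over all genes the share of called genes that were lower was 69.7% under the 75th percentile and 53.7% to 55.4% under these 4 scalings, and the median of all genes moved to between -0.04 and -0.03. Without the dim positive array 1, 4 members were higher and 12 lower, and the 11 genes named above were all among them. Sdc2, Sdc1 and Chst11 kept their calls under each of the 15 alternatives, including those without any 1 array.

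**Figure D1:**
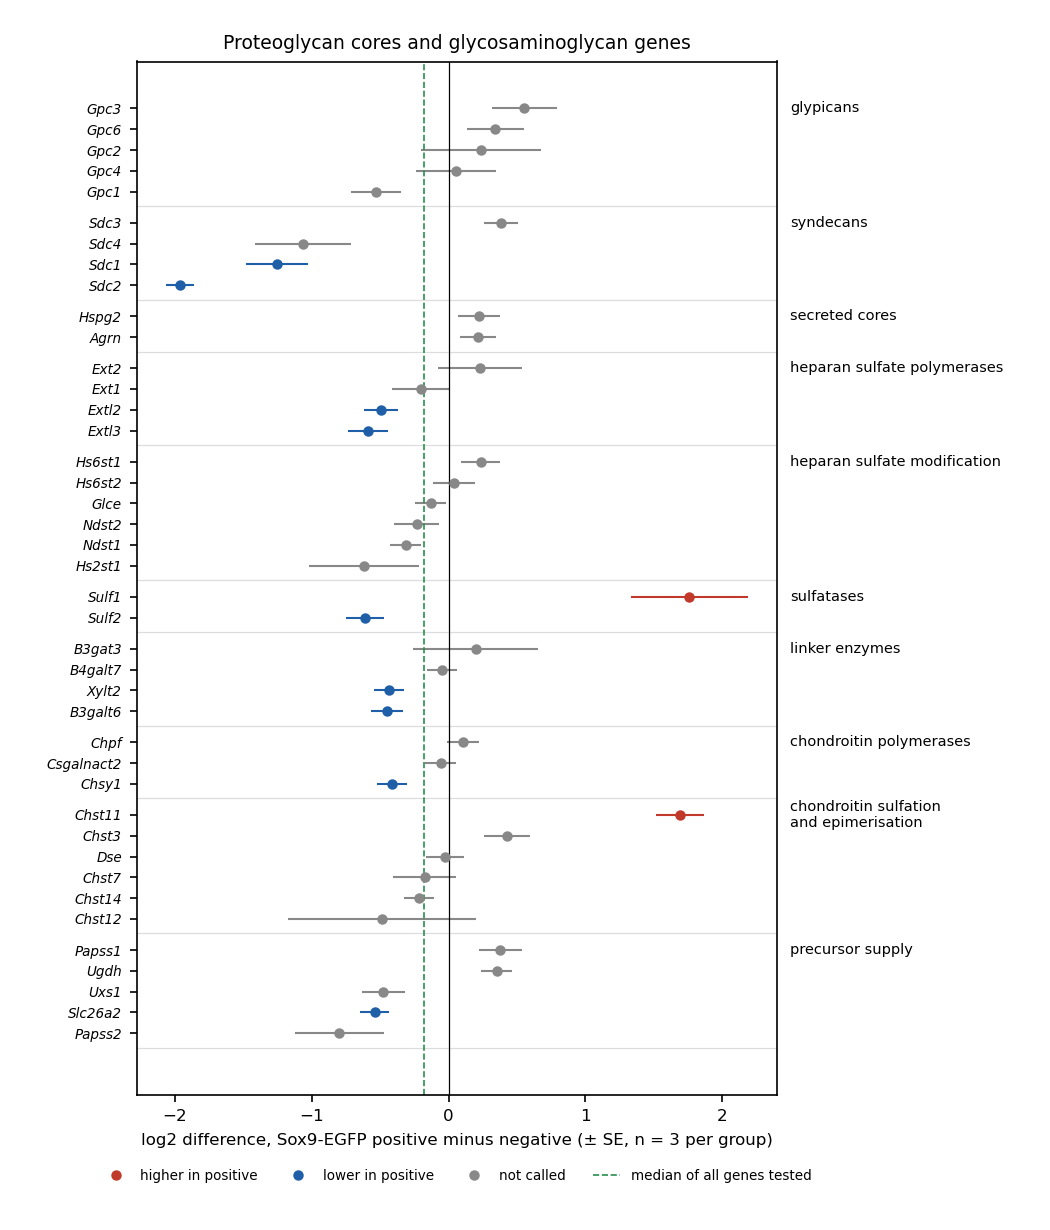
Differences of the 41 tested genes between Sox9-EGFP positive and negative cells on a log2 scale (points, with bars for the SE; n = 3 arrays per group), grouped by role, with red for called higher, blue for called lower and grey for not called. The dashed line is the median of all genes tested at -0.18, and Sdc2 at -1.96 and Sulf1 at 1.76 are the ends of the range.

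The 4 genes called at 2-fold or more, and Sulf2, the paralog of Sulf1, were read by the following oligonucleotides, which are printed because every value of these genes is the hybridisation of one of them. Each probe has 60 bases, of which the first 30 as deposited are shown in lower case, and coordinates are those of the mm9 build in the array files. The probes lie on chr15:32964204-32964263 (Sdc2), chr12:8799383-8799442 (Sdc1), chr1:12850302-12850361 (Sulf1 probe A), chr1:12849507-12849566 (Sulf1 probe B), chr2:165899667-165899726 (Sulf2, minus strand) and chr10:82658397-82658456 (Chst11), on the plus strand unless stated.
Sdc2: taatggccttaattcatacctttctgtcca
Sdc1: atctgtatggtgccccatttttggcggccc
Sulf1 probe A: atcacatattgtttagcgtacgcttttccc
Sulf1 probe B: aaggatgcttttgaagatcaattgcgtcct
Sulf2: gtaggggaatctcactaatatgaaatcccg
Chst11: cttctgagcatgctcagtaagcatatggac

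The syndecans, transmembrane core proteins, held the largest decreases of the set. Sdc2, which is expressed mainly in mesenchymal cells, was at 1.07, 0.95 and 0.92 in positive cells, against 2.93, 2.89 and 3.02 in negative cells. The positive arrays all lay below the negative arrays, and the arrays of each group lay close together. The difference was -1.96 ± 0.10, a 3.90-fold decrease (adjusted p = 0.000201, limma). Sdc1, known from epithelia and also from condensing mesenchyme, was at 2.68, 3.38 and 3.23 in positive cells, against 4.44, 4.07 and 4.55 in negative cells. The groups did not overlap, and the difference was -1.26 ± 0.23, a 2.39-fold decrease (adjusted p = 0.00845, limma). The ectoderm list moved the other way in its summed log2 level, which was -1.91 to -0.44 in positive and -6.67 to -4.32 in negative samples. Of its 5 measured markers of 7, 3 were called higher (Krt8, Krt18 and Trp63). Epcam and Krt14 were not called, with differences of -0.43 and -0.03, and each was above background on 2 of 3 positive arrays. Krt5 and Cdh1 of that list were not above background on all arrays of either group, and the part of ectoderm in the Sdc1 difference was not tested.

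Sdc4 and Sdc3, the other two syndecans, were not called. Sdc4 was at -5.00, -4.26 and -3.98 in positive cells, of which the first was not above background, against -3.93, -2.95 and -3.16 in negative cells. Its arrays did not overlap and its difference of -1.06 ± 0.35 missed the threshold (adjusted p = 0.0581, limma). The size of the Sdc4 difference varied with the scaling, at -1.78 under quantile normalization, -0.42 with normexp and -0.43 with the authors' values, none of them called (adjusted p of 0.0726 to 0.113). Without negative array 1 it was -1.35 with an adjusted p of 0.0430, and with the replicate block it was called at -1.06 (adjusted p = 0.0245, limma). Sdc4 passed the filter only through the negative cells. Sdc3, the syndecan of neural tissue and of cartilage condensations in chick limbs, was the only member of its family with a positive difference, 0.38 ± 0.12 (adjusted p = 0.0539, limma). It was at 2.29, 2.02 and 2.22 in positive cells, against 1.85, 1.68 and 1.85 in negative cells, without overlap. Sdc3 was called higher under each of the 4 other scalings, with adjusted p of 0.00957 to 0.0197.

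None of the 5 glypicans, core proteins held to the membrane by a lipid anchor, was called. Gpc1 had the smallest p of the family and was at 6.06, 5.56 and 5.60 in positive cells, against 6.05, 6.33 and 6.42 in negative cells. Positive array 1 alone reached the negative arrays. The difference was -0.53 ± 0.18 (adjusted p = 0.0642, limma), and it was called with slide as a block (adjusted p = 0.0493) and without positive array 1 (-0.69, adjusted p = 0.0156). Under normexp, quantile normalization and the authors' values the Gpc1 difference was -0.18, -0.19 and -0.24 (adjusted p of 0.295 to 0.448). Gpc3, the glypican whose loss causes overgrowth in mice, had a difference of 0.55 ± 0.24 (adjusted p = 0.121, limma). Its 5.44, 4.64 and 4.60 in positive cells lay above the 4.26, 4.43 and 4.32 in negative cells, and it was called higher under 3 of the 4 other scalings (adjusted p of 0.0126 to 0.0281). Gpc6, Gpc2 and Gpc4 had differences of 0.34, 0.24 and 0.05, with overlapping arrays, and Gpc4 was not above background on positive array 1. The sign of Gpc4 turned under quantile normalization, normexp and the authors' values, where it was -0.24, -0.06 and -0.06.

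The secreted cores Agrn and Hspg2, which encode agrin and perlecan of basement membranes and matrix, were not called either. Agrn was at 5.77, 6.05 and 6.06 in positive cells, against 5.68, 5.67 and 5.89 in negative cells. These ranges overlapped, and the difference was 0.22 ± 0.13 (adjusted p = 0.254, limma). A second, dimmer Agrn probe gave -0.04. Hspg2 had a difference of 0.22 ± 0.15 (adjusted p = 0.299, limma). Agrn was called higher with normexp and with the authors' values, and Hspg2 with normexp (adjusted p of 0.0423 to 0.0491).

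Of the 4 tested genes of heparan sulfate polymerisation, Extl3 and Extl2 were lower and Ext1 and Ext2 were not called. Extl3 adds the first N-acetylglucosamine that commits a linker to heparan sulfate. It was at 3.84, 4.23 and 4.08 in positive cells, against 4.66, 4.50 and 4.75 in negative cells, a difference of -0.59 ± 0.14 (1.5-fold lower, adjusted p = 0.0226, limma). Extl2, which can cap a phosphorylated linker with N-acetylglucosamine and so end the chain, was 1.41-fold lower, with a difference of -0.50 ± 0.12 (adjusted p = 0.0242, limma). The arrays of both groups did not overlap for either gene. Without positive array 3, negative array 1 or negative array 3, Extl3 missed the threshold (adjusted p of 0.0636 to 0.0844), and so did Extl2 without these arrays or positive array 2 (0.0535 to 0.0895). Quantile normalization, normexp and the authors' values also ended both calls, with adjusted p of 0.230 to 0.250 for Extl3 and 0.0560 to 0.121 for Extl2. Ext1 and Ext2, the subunits of the polymerase that extends the chain, had differences of -0.21 ± 0.21 and 0.23 ± 0.30 with overlapping arrays. Both changed sign under quantile normalization, normexp and the authors' values. On positive array 1 Ext2 was not above background. Extl1 was not above background on any array.

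None of the 6 tested genes that modify the heparan sulfate chain was called. Ndst1, the main N-deacetylase and N-sulfotransferase of embryos, had the smallest p of these, at 1.48, 1.31 and 1.30 in positive cells, against 1.59, 1.72 and 1.73 in negative cells. The arrays did not overlap, and the difference was -0.31 ± 0.11 (adjusted p = 0.0702, limma). Of the 2 dimmer Ndst1 probes, the first gave -0.16 and the second 0.01. Hs2st1, which sulfates the uronic acid at the 2-O position, was at 1.65, 0.15 and 0.23 in positive cells, against 1.37, 1.32 and 1.18 in negative cells. Positive array 1 lay above all negative arrays and the other two positive arrays lay below them, so the difference was -0.62 ± 0.40 (adjusted p = 0.276, limma). Without positive array 1 the Hs2st1 difference was -1.10 (adjusted p = 0.00209), that of Ndst1 was -0.37 (adjusted p = 0.0417) and that of Ext2 was 0.58 (adjusted p = 0.0206). Ext2 was not above background on that array. The other differences were 0.23 for Hs6st1 and 0.04 for Hs6st2, both 6-O-sulfotransferases, -0.13 for the epimerase gene Glce, and -0.23 for Ndst2. Ndst3 and Hs6st3 were not above background on any array, and Hs3st1 was so on 1 positive and 2 negative arrays.

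The extracellular sulfatases, which remove 6-O-sulfate from finished heparan sulfate and so change its binding of growth factors, were the class with calls in both directions. Sulf1 probe A was at 3.04, 3.99 and 4.83 in positive cells, against 2.39, 2.11 and 2.09 in negative cells. All positive arrays lay above all negative ones, and the SE was the widest among the called members. The difference was 1.76 ± 0.43, 3.38-fold higher (adjusted p = 0.0226, limma). Sulf1 probe B was at -1.38, 1.0 and 1.89 in positive cells, against -0.79, -1.34 and -0.96 in negative cells. Here positive array 1 lay below all negative arrays, and the difference of 1.54 ± 0.80 missed the threshold in a fit over all probes (adjusted p = 0.223, limma). Sulf2 was at 4.79, 4.95 and 4.95 in positive cells, against 5.61, 5.27 and 5.64 in negative cells. The groups did not overlap, and Sulf2 was 1.53-fold lower, a difference of -0.61 ± 0.14 (adjusted p = 0.0187, limma).

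Both sulfatase calls ended when certain arrays were left out, though the differences kept their sign. Without 1 array they were 1.32 to 2.21 for Sulf1 and -0.73 to -0.55 for Sulf2. Over all genes, leaving out 1 array gave 2485 to 5176 calls, against 4617 with all arrays. Sulf1 missed the threshold without positive array 2 or any 1 of the negative arrays (adjusted p of 0.0573 to 0.0812), with the mean of its probes (1.65, adjusted p = 0.0787) and with no filter on background (adjusted p = 0.0677). It also did so with the replicate block (adjusted p = 0.0527, limma). Without the dim positive array 1 it was 2.21 (adjusted p = 0.00297). Its call held under all 4 other scalings, with differences of 1.91 to 2.06. Sulf2 missed the threshold without positive array 3, negative array 1 or negative array 3 (adjusted p of 0.0515 to 0.0761). It also did so with no filter on background and with the replicate block (adjusted p = 0.0680 and 0.0760, limma). Under quantile normalization, normexp and the authors' values the Sulf2 difference was -0.22, -0.27 and -0.28 and was not called (adjusted p of 0.200 to 0.346).

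Of the 5 linker enzymes, 2 were lower, 2 were not called and 1 was not tested, while 24.4% of all genes were lower. Xylt2 attaches the first xylose to the core protein. It was at 2.71, 2.59 and 2.64 in positive cells, against 2.98, 3.09 and 3.18 in negative cells, a difference of -0.44 ± 0.11 (1.35-fold lower, adjusted p = 0.0233, limma). B3galt6, which adds the second galactose, was 1.37-fold lower (-0.45 ± 0.12, adjusted p = 0.0286, limma). Neither pair of groups overlapped, yet Xylt2 missed the threshold without each array other than positive array 1 (adjusted p of 0.0568 to 0.0857), and B3galt6 did so without positive arrays 2 or 3 or negative arrays 1 or 3 (0.0605 to 0.0912). Xylt2 was not called under any of the 4 other scalings (adjusted p of 0.0918 to 0.337), and the mean of its probes gave -0.24 (adjusted p = 0.265). B3galt6 missed the threshold when arrays were centred on the median (adjusted p = 0.0670). The galactosyltransferase gene B4galt7 had a difference of -0.05 ± 0.11 and the glucuronyltransferase gene B3gat3 one of 0.20 ± 0.45. Xylt1, the other xylosyltransferase, was above background on 1 negative array.

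The sulfotransferase gene Chst11 held the clearest increase of the set. Chst11 places sulfate at the 4-O position of chondroitin, and its loss in mice disturbs the growth plate. It was at -0.75, -0.98 and -0.47 in positive cells, against -2.54, -2.53 and -2.19 in negative cells. All positive arrays lay above all negative arrays, and the difference was 1.69 ± 0.18, 3.23-fold higher (adjusted p = 0.00143, limma). It was smaller with normexp and with the authors' values, at 1.05 and 1.01, and remained called (adjusted p = 0.00227 and 0.00224). The 6-O-sulfotransferase gene Chst3 was at 0.91, 1.15 and 1.40 in positive cells, against 0.59, 0.66 and 0.93 in negative cells, and positive array 1 lay just below negative array 3. Its difference of 0.43 ± 0.17 missed the threshold (adjusted p = 0.0935, limma), and it was called higher under 3 of the 4 other scalings (adjusted p of 0.0358 to 0.0454) and without positive array 1 (0.55, adjusted p = 0.0366).

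The remaining genes of chondroitin sulfation were Chst12, a second 4-O-sulfotransferase, Chst7, a 6-O-sulfotransferase, Chst14, the 4-O-sulfotransferase of dermatan, and Dse, the epimerase that turns chondroitin into dermatan. Their differences were -0.48 ± 0.69, -0.18 ± 0.23, -0.21 ± 0.11 and -0.03 ± 0.14, and none was called. Chst12 was at -2.09, -3.86 and -4.06 in positive cells, against -3.29, -1.69 and -3.57 in negative cells. On each slide the positive array lay below the negative one, and with slide as a block Chst12 was called (adjusted p = 0.0487), while without negative array 2 its difference was 0.10.

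Of the chondroitin polymerases, Chsy1 was lower and Chpf and Csgalnact2 were not called. Chsy1, whose loss shortens digits in mice, was at 3.92, 3.82 and 3.80 in positive cells, against 4.20, 4.19 and 4.39 in negative cells. The groups did not overlap, and the difference was -0.41 ± 0.11, 1.33-fold lower (adjusted p = 0.0311, limma), with -0.39 from its second probe. The call ended without each array other than positive array 1 (adjusted p of 0.0516 to 0.104) and under each of the 4 other scalings (0.10 to 0.498). Chpf, the partner of the synthase, had a difference of 0.10 ± 0.12 and was called higher with normexp and with the authors' values (adjusted p = 0.0450 and 0.0484). Csgalnact2, which starts the chondroitin chain, had a difference of -0.06 ± 0.11. Csgalnact1 and Chsy3 were not above background on any array.

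**Figure D2:**
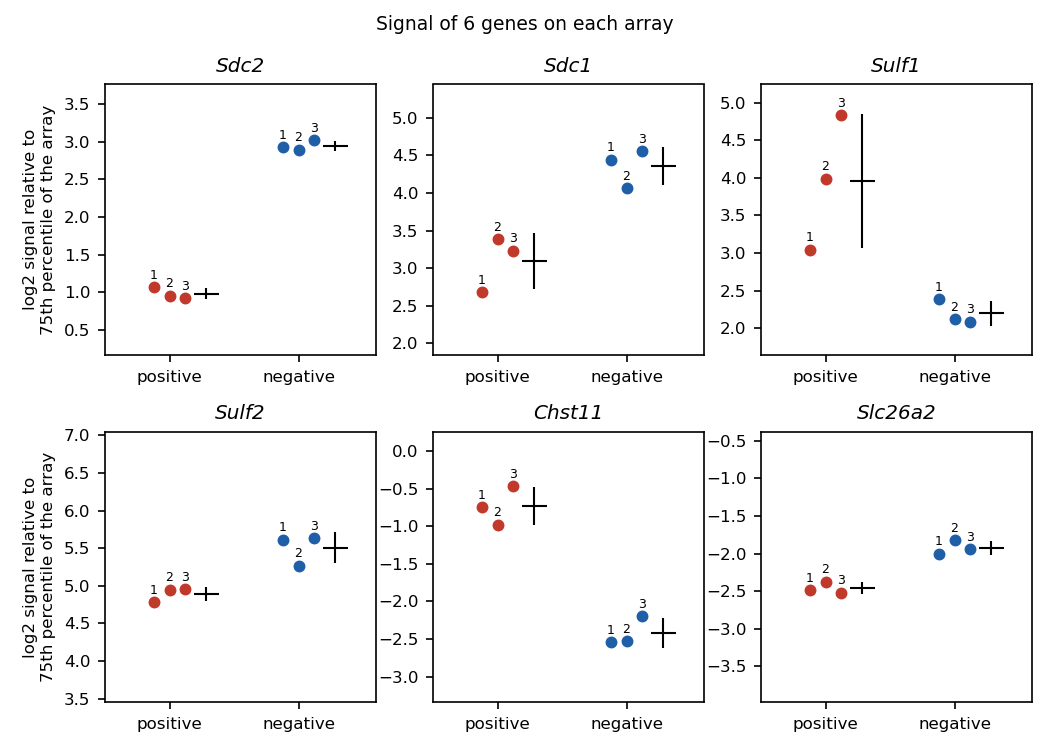
Log2 signal relative to the 75th percentile of the array on each of the 6 arrays for Sdc2, Sdc1, Sulf1 (probe A), Sulf2, Chst11 and Slc26a2, with positive arrays in red and negative arrays in blue, replicate numbers above the points, and the mean and SD in black. All panels span the same number of log2 units, and the groups do not overlap in any panel, while the positive arrays of Sulf1 spread from 3.04 to 4.83.

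Among the genes that supply precursors, the sulfate transporter gene Slc26a2, mutated in human diastrophic dysplasia, was lower. It was at -2.49, -2.37 and -2.52 in positive cells, against -2.00, -1.82 and -1.94 in negative cells, without overlap. The difference was -0.54 ± 0.11, 1.46-fold lower (adjusted p = 0.0121, limma). It was called under 13 of 15 alternatives, the others being no filter on background (adjusted p = 0.0544) and the replicate block (0.0673). Papss2 and Papss1 make PAPS, the sulfate donor of all these sulfotransferases, and had differences of -0.80 ± 0.33 and 0.38 ± 0.16 (adjusted p = 0.104 and 0.107, limma). Papss2 was at 1.54, 0.88 and 2.20 in positive cells, against 2.15, 2.41 and 2.47 in negative cells, and positive array 3 overlapped the negative arrays. Without that array the Papss2 difference was -1.13 (adjusted p = 0.0302).

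Ugdh makes UDP-glucuronic acid and Uxs1 turns it into UDP-xylose, and neither was called. The difference of Ugdh was 0.35 ± 0.12 (adjusted p = 0.0589, limma), at 4.20, 4.03 and 4.10 in positive cells, against 3.83, 3.62 and 3.83 in negative cells. That of Uxs1 was -0.48 ± 0.16 (adjusted p = 0.0592, limma), at -0.68, -0.49 and -0.52 in positive cells, against -0.07, -0.36 and 0.17 in negative cells. The groups did not overlap for either gene. Ugdh was called higher under each of the 4 other scalings (adjusted p of 0.00380 to 0.0164), as Papss1 was under 3 of them (0.0187 to 0.0246). Uxs1 was called lower with slide as a block (adjusted p = 0.0346) and without negative array 2 (-0.61, adjusted p = 0.0313). Its second, dimmer probe gave -0.06, and the mean of both probes gave -0.27 (adjusted p = 0.205).

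Heparan sulfate enzymes were then set against chondroitin sulfate enzymes as lists, by counts and medians and with no test. Of the 16 heparan sulfate enzymes 12 were tested, 1 was higher and 3 were lower, and their median difference was -0.22 with a range from -0.62 to 1.76. Of the 11 chondroitin sulfate enzymes 9 were tested, 1 was higher and 1 was lower, and their median was -0.06 with a range from -0.48 to 1.69. Over all genes 10.6% were higher and 24.4% lower, and the median was -0.18. The counts depended on the scaling: with normexp and with the authors' values 1 heparan enzyme was higher and 0 lower, and 3 chondroitin enzymes were higher and 0 lower. Leaving out 1 array gave 0 to 2 higher and 0 to 5 lower among heparan enzymes, and 1 to 2 higher and 0 to 1 lower among chondroitin enzymes. The chondroitin median minus the heparan median was 0.16, and within the slides it was 0.40, 0.19 and -0.0040. Without positive array 1 this value was 0.06, without negative array 1 it was 0.10, and without positive array 3 or negative array 2 it was 0.29. The order of the medians turned with the scaling, since the value was -0.01 under quantile normalization and -0.11 both with normexp and with the authors' values. In each list 1 gene stood far above the rest, Sulf1 among the heparan and Chst11 among the chondroitin enzymes. The 11 heparan sulfate cores, with 0 higher and 2 lower, had a median of 0.22. Within slides 1, 2 and 3 the median of these cores was -0.27, 0.16 and 0.22, and slide 1 carried the dim positive array 1.

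**Figure D3:**
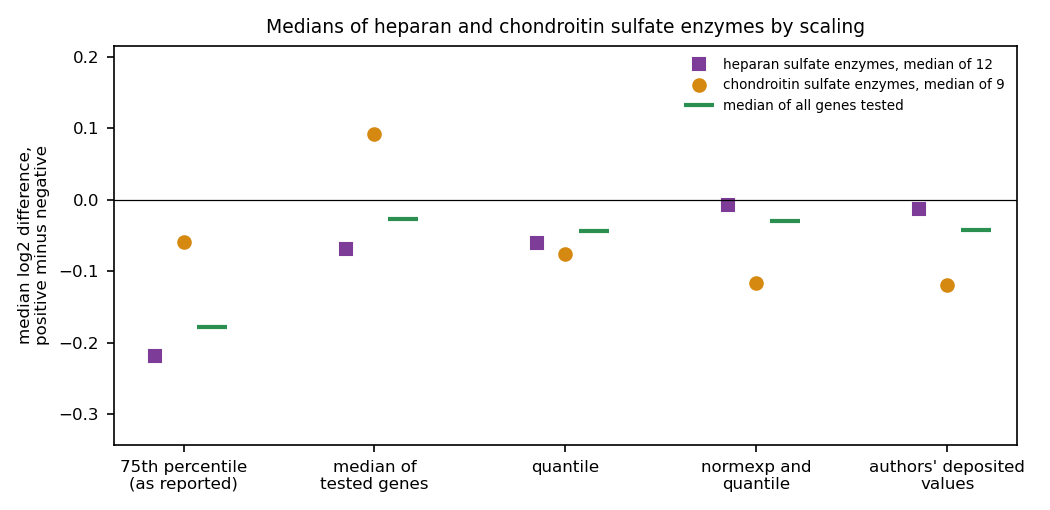
Median log2 difference, positive minus negative cells, of the 12 tested heparan sulfate enzymes (squares), the 9 tested chondroitin sulfate enzymes (circles) and all genes tested (bars) under 5 scalings. The chondroitin median lies above the heparan median under the 75th percentile and median scalings and below it under the other three.

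Other genes of the pathway, 61 in 7 lists, were fitted in the same model, and 51 were tested, of which 15 were higher and 5 lower (11 to 17 and 1 to 9 over the 15 alternatives). Core proteins that carry chondroitin or dermatan sulfate had 4 of 9 tested genes higher and 0 lower, against 10.6% and 24.4% of all genes. Cspg4, the transmembrane core NG2, was at 1.69, 1.61 and 1.93 in positive cells, against -0.87, -0.88 and -1.18 in negative cells (2.72 ± 0.15, adjusted p = 0.000206, limma). Vcan, which encodes versican of the early limb matrix, was at 4.50, 3.81 and 3.93 in positive cells, against 2.28, 2.37 and 2.57 in negative cells (1.67 ± 0.20, and 2.31 with the mean of its probes). Dcn, which encodes decorin, had a difference of 1.84 ± 0.20, and Cspg5, a neural core protein above background on 2 of 3 negative arrays, one of 1.45 ± 0.24. Cspg5 passed the filter only through the positive cells, and with detection on all 6 arrays the list had 3 genes higher. The Cspg5 difference was 0.33 both with normexp and with the authors' values, still called (adjusted p = 0.0248 and 0.0294, limma). The groups did not overlap for any of these 4. The list of Schwann cell and neural crest markers, 2 measured of 5, moved with them, with a summed level of -2.55 to -1.75 in positive and -4.65 to -3.43 in negative samples. On that list Sox10, above background on 1 of 3 negative arrays, was called higher (1.70 ± 0.43). Sox10 passed the filter only through the positive cells, and its part in these differences was not tested. Acan, the aggrecan gene of mature cartilage, was at -2.76, -4.29 and -2.82 in positive cells, of which the first was not above background, against -3.71, -3.63 and -4.27 in negative cells. Its difference of 0.58 ± 0.44 was not called. Srgn, the core protein of blood cell granules, was at 0.05 on negative array 2 and at -4.14 and -4.16 on the other negative arrays. Over the 15 alternatives this list had 3 to 5 genes higher and 0 lower.

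Heparan sulfate enzymes outside the set held the largest difference of the pathway. Hs3st3a1, a 3-O-sulfotransferase, was at 0.83, 1.0 and 1.39 in positive cells, against -2.85, -2.88 and -3.25 in negative cells. The groups were far apart, with a difference of 4.07 ± 0.19 (16.8-fold higher, adjusted p = 0.000164, limma). With normexp and with the authors' values the Hs3st3a1 difference was smaller, at 2.95 and 2.85, and was called under both. Hs3st3b1, whose sulfotransferase domain is nearly identical, was not tested, and whether its RNA binds the Hs3st3a1 probe is uncertain. Hpse2, a heparanase relative without its activity, was higher by 2.16 ± 0.20, or by 0.91 and 0.89 under these 2 scalings, and Hpse and Hs3st6 were not called (-0.30 each). Together with the set, 3 of 16 tested heparan sulfate enzymes were higher and 3 lower, and 4 of 13 tested chondroitin sulfate enzymes were higher and 1 lower, against 10.6% and 24.4% of all genes. These counts were not stable: with normexp and with the authors' values they were 3 and 0 for heparan and 6 and 0 for chondroitin sulfate enzymes. Over the 15 alternatives they ranged over 2 to 5 higher and 0 to 5 lower for heparan, and 2 to 6 higher and 0 to 2 lower for chondroitin sulfate enzymes. The 5 higher heparan sulfate enzymes were reached only with no filter on background, where enzymes that had failed the filter were also counted. The next highest count was 4, without positive array 1. The higher chondroitin enzymes outside the set were Ust, the uronyl 2-O-sulfotransferase (1.88 ± 0.21), Chst15, which adds a 6-O-sulfate to 4-O-sulfated units (0.78 ± 0.22), and Chpf2, a partner of the synthase (0.71 ± 0.18). Chst15 missed the threshold without each array other than positive array 1 (adjusted p of 0.0560 to 0.102, limma) and Chpf2 without positive arrays 2 or 3 or negative arrays 2 or 3 (0.0614 to 0.0878). With the mean of a gene's probes neither was called (adjusted p = 0.190 for Chst15 and 0.0908 for Chpf2), and quantile normalization ended the Chst15 call (0.0791). Ust was called at 0.88 with normexp and 0.85 with the authors' values.

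The other heparan sulfate cores had 1 gene in each direction, Tgfbr3 (betaglycan, 1.82 ± 0.16) higher and Nrp1 (neuropilin 1, -0.70 ± 0.13) lower. Pxylp1, the phosphatase of linker xylose, was higher by 0.77 ± 0.13. Precursor enzymes and transporters had 3 of 16 tested genes higher and 2 lower, against 10.6% and 24.4% of all genes. The called share of this list was 31.2%, against 35.0% of all genes. The sulfate and oxalate transporter gene Slc26a1 was at -0.96, -0.88 and -1.06 in positive cells, against -1.88, -2.59 and -2.28 in negative cells, a difference of 1.29 ± 0.19 (adjusted p = 0.00449, limma) in the direction opposite to that of Slc26a2. It was 0.72 with normexp and 0.69 with the authors' values, called under both. Gfpt1, the first enzyme of hexosamine synthesis, was higher (0.82 ± 0.16), and so was its paralog Gfpt2 (0.70 ± 0.18), the fifth called gene of the list, named after its value was seen. Gnpnat1, a later step of the same route, was lower (-0.80 ± 0.16), as was Bpnt1, a phosphatase of the spent sulfate donor (-0.81 ± 0.18). Of the 13 genes of lysosomal breakdown, 23.1% were called. Naglu was higher (0.60 ± 0.14), and Gusb and Sumf1 were lower (-0.88 ± 0.11 and -0.54 ± 0.11). The calls of Naglu (without positive arrays 2 or 3 or negative arrays 1 or 3), Sumf1 (without negative arrays 1 or 3) and Bpnt1 (without positive arrays 2 or 3 or negative array 3) ended with adjusted p of 0.050 to 0.0739 (limma). Bpnt1 also lost its call with the mean of its probes (-0.57, adjusted p = 0.205) and with median centring (0.0502), and Naglu with the authors' values (0.0505). With no filter on background and with the replicate block, Naglu, Sumf1, Bpnt1, Chst15 and Chpf2 were not called (adjusted p of 0.0571 to 0.0975, limma). Nrp1 and Gnpnat1 were not called with the replicate block (adjusted p = 0.0520 and 0.0593, limma).

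**Figure D4:**
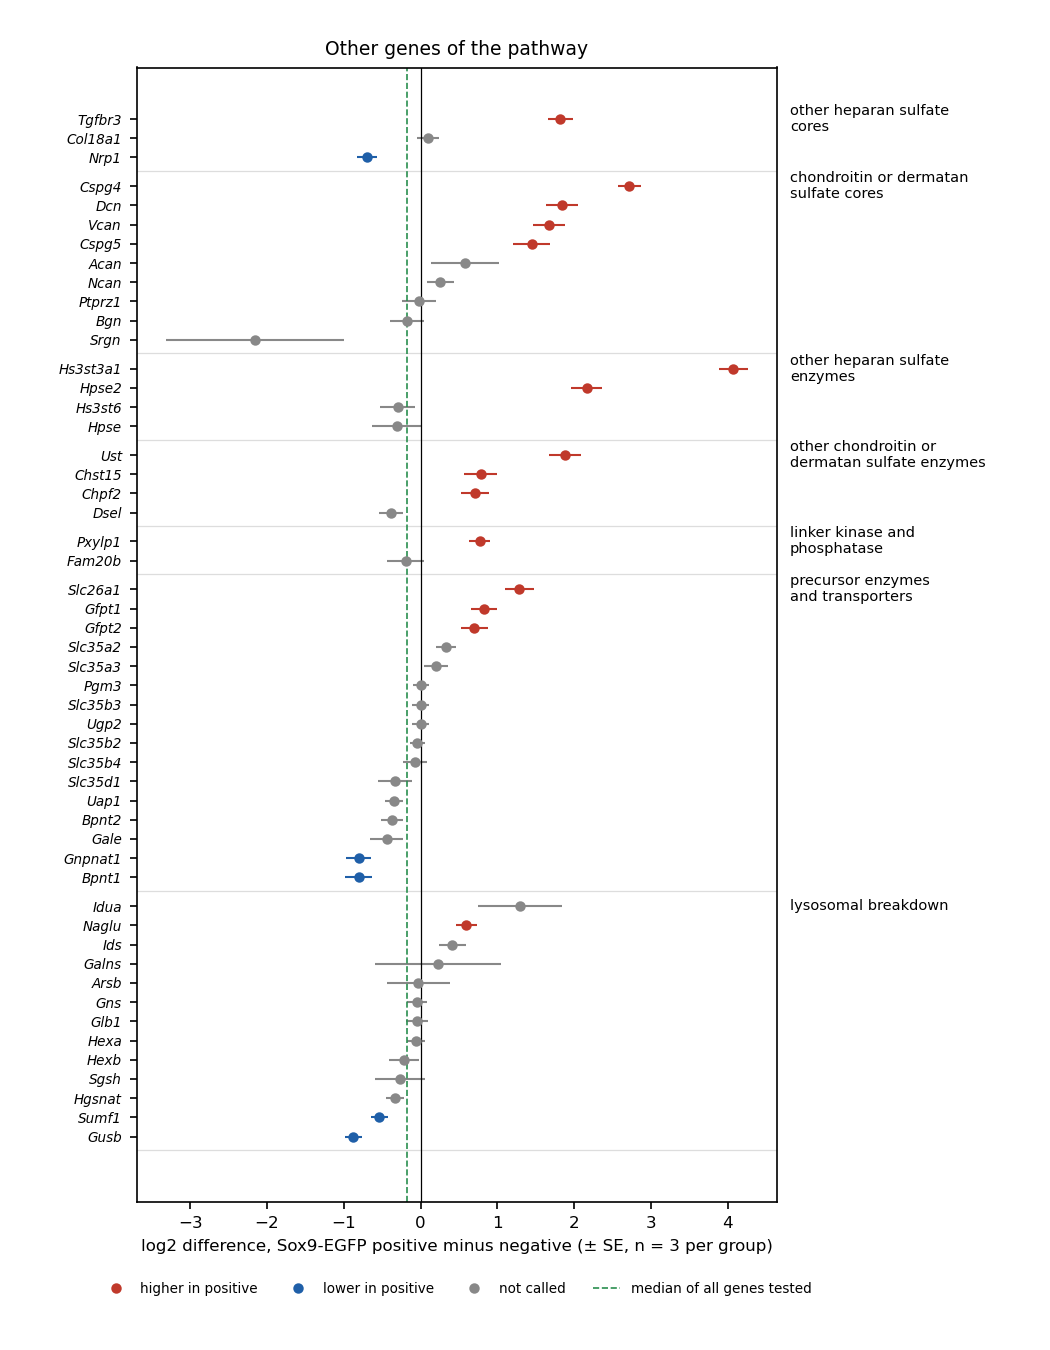
Differences of the 51 tested pathway genes outside the set on a log2 scale, positive minus negative cells (points, with bars for the SE; n = 3 arrays per group), with the colours and dashed line as in the plot of the set's differences. Hs3st3a1 at 4.07 lies farthest right, and no core protein of chondroitin or dermatan sulfate is called lower.

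The 250 bases before the gene start were searched for 3 short motifs on both strands in RefSeq windows of GRCm38.p6. The motifs were ACAAAG or ACAATG for SOX factors, TCAAAG for TCF and LEF factors, and GGGCGG for the GC box. The first SOX motif shares CAAAG with the TCF motif, and the second does not. Windows were found for 37 of the 48 genes (45 windows). The GC box occurred in 64.4% of these windows and in 32.7% of the 32851 windows of all genes, beside a median GC content of 66% and 52.4%. The SOX letters occurred in 11.1% of the set's windows and 25.2% of all windows, and the TCF letters in 4.44% and 13.8%. Among chondroitin sulfate enzymes 9 of 10 windows held the GC box, against 6 of 16 windows of heparan sulfate enzymes. These shares describe letters and base composition only. The windows of Chst11 and Sdc1, called in opposite directions under every alternative run, are shown with GC boxes of either strand in capitals. Each held 3 GC boxes and neither SOX nor TCF letters. They lie on the plus strand at chr10:82985247-82985496 and chr12:8771146-8771395.
Chst11: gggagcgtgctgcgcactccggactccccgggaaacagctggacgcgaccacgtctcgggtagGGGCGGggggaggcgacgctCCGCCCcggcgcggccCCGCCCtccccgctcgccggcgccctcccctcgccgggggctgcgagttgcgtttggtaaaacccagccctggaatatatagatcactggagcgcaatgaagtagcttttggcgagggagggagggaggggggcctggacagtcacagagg
Sdc1: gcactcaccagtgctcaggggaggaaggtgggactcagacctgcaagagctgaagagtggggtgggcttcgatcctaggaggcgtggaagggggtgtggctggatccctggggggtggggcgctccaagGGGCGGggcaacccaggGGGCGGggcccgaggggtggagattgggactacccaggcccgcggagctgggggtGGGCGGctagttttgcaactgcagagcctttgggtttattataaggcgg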

How the data were processed

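Per the file headers, the authors made the deposited intensity values with Feature Extraction 10.7.3.1, which corrects background within an array. The authors' deposited log2 values share 1 distribution over all arrays, and the labels do not state their background correction. Each array's log2 processed intensities were centred on the 75th percentile of its 59305 non-control spots. Control spots (3671) and flagged outlier spots were dropped, and replicate spots of 432 probes were averaged. A RefSeq table named probes by accession (26300), symbol (2044) or older symbol (355), and 26982 had no match. A probe was kept if well above background on all 3 arrays of a group, so some genes passed because 1 group was high. The brightest probe stood for its gene. The test was limma 3.58.1 in R 4.3.3, tried first on simulated data, and 3 arrays per group limit the precision.

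The members and lists were chosen with earlier results of these data known. By rule, arrays are listed for members called at 2-fold or more and for the smallest adjusted p of each role, and up to 4 called genes are named in each other list; further genes listed by array, and Gfpt2, were chosen after their values were seen. Slides (3) carried 1 positive and 1 negative array each, and the 2 arrays of a slide deviated together from their group means (correlations of 0.46, 0.36 and 0.23), so slide pairs the arrays. The main fit ignored this pairing, so its SE, adjusted p and calls are those of an unpaired model. With slide as a block 2 members were higher and 12 lower. The 15 alternatives were normexp (offset 50) with quantile normalization, quantile normalization, median centring, the authors' log2 values, no filter, detection on all 6 arrays, averaging a gene's probes, slide and replicate blocks, and leaving out each array.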

Additional observations from a re-analysis of the deposited data

How the results depend on the processing

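Over all genes, 4617 calls became 2656 with no filter on background, where 21237 genes were tested, and 2157 with the replicate block, and leaving out 1 array gave 2485 to 5176. Members higher (2) and lower (9) became 2 and 2 with no filter, 1 and 8 when a gene's probes were averaged, and 1 and 3 with the replicate block. With no filter Chst11 stayed higher and Sulf1 was not called (adjusted p = 0.0677, limma). The other higher member there was a heparan sulfate enzyme that had failed the filter. The lower members with the replicate block were Sdc2, Sdc1 and Sdc4. Leaving out 1 array gave 1 to 4 higher and 3 to 12 lower. Under normexp, quantile normalization, median centring and the authors' values, members higher were 10, 6, 5 and 9, and lower were 4, 4, 6 and 4. The median of heparan sulfate enzymes (-0.22) was -0.0069, -0.061, -0.069 and -0.013, and -0.32 to -0.13 without 1 array. That of chondroitin sulfate enzymes (-0.059) was -0.12, -0.076, 0.091 and -0.12, and -0.13 to 0.029 without 1 array. Positive and negative arrays of equal replicate number had deviations from their group means that correlated at -0.27, -0.42 and 0.16. Whether equal numbers share a sort or litter is not stated, and these correlations cannot tell. The slide block gave 5245 calls over all genes, added Gpc1, Chst12 and Uxs1 as lower, and changed no other member's call. Signs turned in 35 values of 12 members, of which 0 were called under either setting. Under normexp, quantile normalization and the authors' values these were Ext1 (0.034, 0.021 and 0.02), Ext2 (-0.0022, -0.081 and -0.0033), Glce (0.14, 0.13 and 0.13) and Gpc4 (-0.061, -0.24 and -0.06), with Csgalnact2 at 0.050 under quantile normalization. Median centring turned B4galt7 (0.10), Csgalnact2 (0.091), Dse (0.12) and Glce (0.019). Leaving out 1 array gave B3gat3 -0.086 to 0.68, B4galt7 -0.086 to 0.011, Chst12 -1.11 to 0.096, Chst7 -0.41 to 0.050, Csgalnact2 -0.12 to 0.015, Dse -0.13 to 0.039, Ext1 -0.37 to 0.010, Gpc2 -0.17 to 0.54, Gpc4 -0.27 to 0.27 and Hs6st2 -0.039 to 0.16. The cause of these changes was not tested.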
